A study of Mus musculus with 12 samples.

Results

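Genes named Zfp followed by a number encode zinc finger proteins, and 115 of them gave a bright signal in mouse epiblast stem cells (EpiSCs), which are pluripotent cells of the kind found in the epiblast once the embryo has implanted. A gene was included where its symbol was Zfp with digits only, where a probe was annotated to that gene alone, and where its brightest probe had a mean of at least 7 on the log2 scale over all 12 arrays; Zfp36 and Zfp42 were left out by rule. Of 315 Zfp genes measured this way, 115 (36.5%) reached that mean and 200 did not, among 19938 genes measured in all. The genes were chosen by their mean level over the 12 arrays, so that level is given as a description with no test. The values of the members closest to the threshold were 7.0 for Zfp326, 7.02 for Zfp553 and 7.03 for Zfp275, and those just below it were 6.99 for Zfp623, 6.98 for Zfp747 and 6.97 for Zfp101.

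The study measured RNA on Affymetrix arrays to find genes that respond to CHIR99021 and XAV939, both of which act on the Wnt pathway. CHIR99021 inhibits the kinase GSK3 and stabilises beta-catenin, whereas XAV939 inhibits tankyrase and stabilises Axin, which promotes beta-catenin breakdown. All 12 samples were EpiSCs of 129 background, with 3 arrays in each of 4 groups: untreated cells (NT), cells given 3 µM CHIR99021 (CHIR), cells given 2 µM XAV939 (XAV) and cells given both compounds at those doses (CHIR+XAV). Every group, NT included, was kept without serum for 12 h per the design text, while the growth medium is listed with 10% serum. CHIR99021 was given for 2 h. Sources differ on the time with XAV939, with 2 h given per sample and 4 h for the series. Another label calls the cells embryonic stem cells. Whether replicates are separate cultures is not stated, so the p-values below refer to the spread among these arrays, and that spread may be technical.

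Most Zfp proteins bind DNA through a row of fingers, each held together by a zinc ion and each reading a few bases. Many also carry a KRAB domain, which recruits Trim28 (KAP1) and, through it, the histone methyltransferase Setdb1, heterochromatin proteins and DNA methyltransferases, and so silences retroelements and keeps imprints in the early embryo. Others have no KRAB domain and work at promoters, on RNA, on ribosomes or on the mitotic spindle. KRAB zinc finger genes have spread by tandem duplication, so many lie side by side and are close in sequence, and a probe for one may also bind the RNA of a near copy. Probe sequences were not used here, so signal shared between such copies could not be separated.

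The 250 bases before the annotated start are shown for the called Zfp genes that have an entry in the RefSeq promoter table (GRCm38.p6), because beta-catenin acts on genes through TCF/LEF factors and the letters these factors read can be searched for. Sequences run 5′ to 3′ on the gene's strand, and capitals mark each match on either strand. The TCF/LEF motif was searched as CTTTGAT, as its second form CTTTGTT, and also in the form CTTTGAA. Also searched were the ZNF143 motif ACTACAA, the NFY motif given as CCAAT, and the SP/KLF motif given as GGGCGG; matches may overlap or touch. The Zfp346 window is chr13:55105059-55105308 on the plus strand, that of Zfp507 is chr7:35802990-35803239 on the minus strand, and that of Zfp655 is chr5:145231492-145231741 on the plus strand. Zfp346 had a second window that overlaps the first, chr13:55105072-55105321, which is not printed.
Zfp346: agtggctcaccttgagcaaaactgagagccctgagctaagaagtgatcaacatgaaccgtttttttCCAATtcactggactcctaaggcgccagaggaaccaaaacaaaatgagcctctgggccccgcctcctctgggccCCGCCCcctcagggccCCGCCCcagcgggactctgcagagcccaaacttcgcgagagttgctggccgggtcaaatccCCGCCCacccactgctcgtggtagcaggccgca
Zfp507: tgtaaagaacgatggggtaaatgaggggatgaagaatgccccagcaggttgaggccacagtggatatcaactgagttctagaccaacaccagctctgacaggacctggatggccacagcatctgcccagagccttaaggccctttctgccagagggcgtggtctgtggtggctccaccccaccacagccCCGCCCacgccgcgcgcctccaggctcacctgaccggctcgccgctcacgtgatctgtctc
Zfp655: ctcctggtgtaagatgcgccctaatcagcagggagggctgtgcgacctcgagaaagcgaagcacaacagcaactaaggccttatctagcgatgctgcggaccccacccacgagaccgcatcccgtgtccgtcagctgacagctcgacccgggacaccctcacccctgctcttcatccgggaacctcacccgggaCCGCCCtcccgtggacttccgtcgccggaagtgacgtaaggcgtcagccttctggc

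The Zfp346 window held 4 matches, 1 CCAAT on the gene's strand and 3 GGGCGG on the other, and the windows of Zfp507 and Zfp655 each held 1 GGGCGG on the other strand. The second Zfp346 window held the same 4 matches as the first. None of the 3 printed windows held a TCF/LEF motif, nor did the second Zfp346 window, which says only that these letters are not in these bases. Over all members, 95 of the 115 had an entry, with 121 windows between them. Of the TCF/LEF forms, CTTTGAT was found in 7.44% of those windows, in 2.19% of the windows of other genes with a mean of at least 7 and in 3.21% of all windows; for CTTTGTT these shares were 3.31%, 3.11% and 5.03%, and those of the form CTTTGAA were 2.48%, 3.01% and 4.45%. The 9 windows with CTTTGAT belonged to 9 genes, among them Zfp445, Zfp148, Zfp622 and Zfp869. Changes were looked up for this form only, the one with a share in Zfp windows above both other shares, and not for CTTTGTT or CTTTGAA. The changes of these 9 genes with CHIR against NT ran from -0.06 to 0.14 with a median of 0.08. Of them 8 were positive and 1 negative, and none was called. Over all 115 members the median was 0.05 and 65.2% were positive. The positive share was 63.7% of the other genes with a mean of at least 7 and 48.1% of all genes. Any of the 3 TCF/LEF forms was found in 12.4% of the Zfp windows, 7.95% of the other bright windows and 12.0% of all windows. CCAAT was found in 49.6% of the Zfp windows against 35.8% of the other bright windows and 33.9% of all, and GGGCGG in 50.4% against 61.5% and 32.7%. ACTACAA was found in 4.96%, 4.44% and 2.81%. The median GC content was 55.6% in the Zfp windows, 60.8% in the other bright windows and 52.4% in all windows. The windows thus differ in base composition as well as in motifs. Neighbouring Zfp genes may also share sequence, which was not compared here, and no test was made.

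Across the series the array medians lay between 5.22 and 5.27 and correlations between arrays ranged from 0.990 to 0.995. Of 10 EpiSC markers, 9 had a mean of at least 7, as did 0 of 8 naive pluripotency markers, 1 of 10 feeder fibroblast markers (Thy1, 7.54), 1 of 6 neural markers and 0 of 7 endoderm markers. The summed linear level of the feeder list was 420 to 434 in NT, 385, 382 and 401 in CHIR, 407 to 430 in XAV and 413 to 427 in CHIR+XAV. Thy1, the brightest gene of that list, weighs most in the sum. The median of the list's means was 4.72, below the background measure given next. The part of other cell types in any Zfp value was not tested. All 5 genes fixed as a check of the treatment, among them Axin2 and Nodal, were called higher with CHIR against NT. With XAV against NT none of the 5 was called. With CHIR+XAV, 4 of the 5 were called higher against NT, and 2 were called lower against CHIR. In these 4 comparisons 0.421%, 0%, 1.13% and 0.0251% of all genes were called in either direction. A rough measure of background was taken from 1178 olfactory and vomeronasal receptor genes, whose means had a 95th percentile of 4.93; 50 of the 200 dimmer Zfp genes had a mean below it.

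Zfp genes filled the lower part of the bright range. Their means ran from 7.0 to 12.2 with a median of 7.99, compared with a median of 8.57 for the 6453 other genes with a mean of at least 7. Of the 115, 58 lay between 7 and 8, 33 between 8 and 9, 17 between 9 and 10 and 7 (6.09%) at 10 or more, where 17.4% of the other genes were. The 5 brightest probes were those of Zfp706, Zfp207, Zfp971, Zfp664 and Zfp640; a probe's brightness depends on its sequence, so their order is not an order of abundance. The spread between arrays of a group had a median SD of 0.11 and ran from 0.05 for Zfp110 to 0.30 for Zfp935. It exceeded the median of other genes within 0.25 of the same mean, called equally bright genes below, for 69 of the 115, and the median of that comparison value was 0.10.

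By the brightest probe of each gene, differences between treatments were small in all Zfp genes of this level. A change below is a difference of group means on the log2 scale, and a gene was called where limma's test gave an adjusted p under 0.05 over all 19938 genes. The 5 comparisons were CHIR, XAV and CHIR+XAV each against NT, and CHIR+XAV against XAV and against CHIR. In these the largest change of any of the 115 was -0.49 (Zfp971, XAV against NT), so none reached 1.5-fold by that probe. Dimmer probes gave -0.63 for Zfp60 with CHIR against NT, past 1.5-fold, and -0.50 and -0.53 for Zfp640 with XAV against NT. By the brightest probe, changes stayed under 0.25 in all 5 comparisons for 81 of the 115 (70.4%), compared with 82.7% of the other genes with a mean of at least 7. Limma called 4 of them, all higher with CHIR+XAV against NT, and none in the other 4 comparisons or in the interaction.

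**Figure D1:**
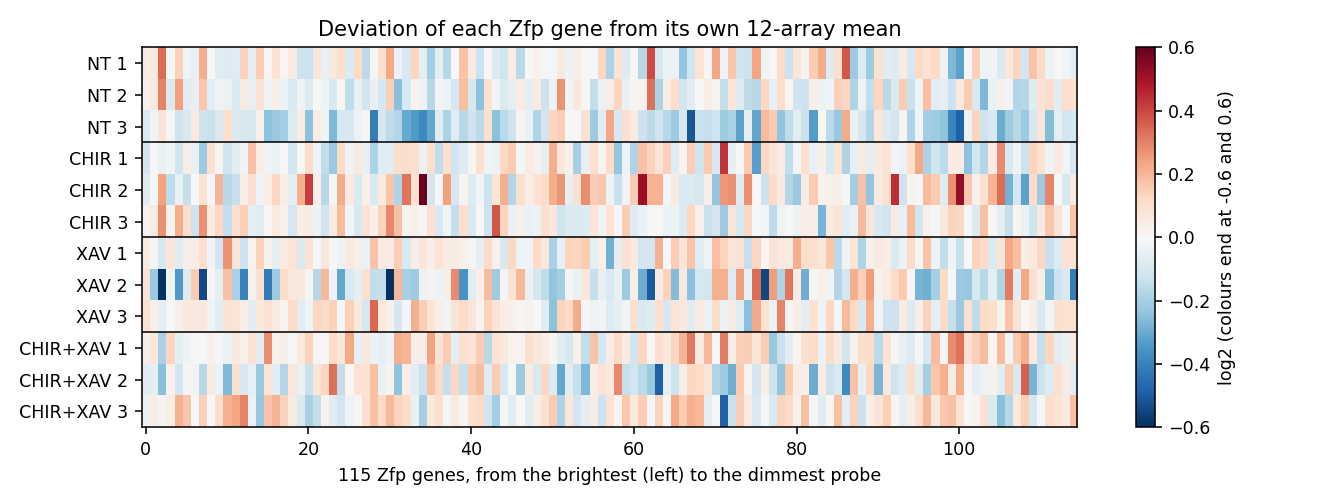
Each column is 1 of the 115 Zfp genes, from the brightest to the dimmest probe, and each row is 1 array; colour is the log2 value on that array minus the gene's mean over 12 arrays, ending at -0.6 and 0.6. NT 3 is mostly blue, with 23 of 115 genes above their own mean, while CHIR+XAV 1 has 79 above.

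With both compounds, 4 Zfp genes rose against NT: Zfp346, Zfp507, Zfp646 and Zfp655. That is 3.48% of the 115, where limma called 0.818% of all genes tested and 1.49% of the other genes with a mean of at least 7 on the higher side, and 1.13% and 1.75% in either direction. At an unadjusted p under 0.05, 29 of the 115 passed (25.2%), 23 higher and 6 lower, against 20.4% of the other bright genes and 18.7% of all genes. The 3 CHIR+XAV arrays lay above the 3 NT arrays for 27 of the 115 (23.5%) and below them for 9 (7.83%), compared with 24.4% and 4.03% of the other bright genes and 13% and 12% of all genes.

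Zfp346 (gene ID 26919, chromosome 13) encodes a protein that binds double-stranded RNA. Its values were 8.35, 8.39 and 8.25 on the NT arrays, 8.66, 8.45 and 8.64 with CHIR, 8.59, 8.57 and 8.64 with XAV and 8.80, 8.73 and 8.62 with CHIR+XAV. All 9 treated arrays lay above the 3 NT arrays, and the CHIR+XAV arrays overlapped those of either single compound. From 8.33 ± 0.07 (SD, n = 3) in NT the level rose to 8.72 ± 0.09 with CHIR+XAV, a change of 0.39 (SE 0.08, limma adjusted p = 0.031), compared with a median of 0.08 for equally bright genes. The change was 0.25 with CHIR alone (adjusted p = 0.232) and 0.27 with XAV alone (adjusted p = 0.259).

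Zfp507 (gene ID 668501, chromosome 7) was measured at 8.23, 8.11 and 8.20 in NT, 8.46, 8.34 and 8.36 with CHIR, 8.31, 8.39 and 8.38 with XAV and 8.51, 8.54 and 8.48 with CHIR+XAV. The 3 CHIR+XAV arrays were the highest of the 12, and the 3 NT arrays the lowest. Its level rose by 0.33 (SE 0.07, limma adjusted p = 0.0342) from 8.18 ± 0.06 to 8.51 ± 0.03 (SD, n = 3), against 0.09 for equally bright genes. The changes with CHIR or XAV alone, 0.21 and 0.17, were not called (adjusted p = 0.278 and 0.374).

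Zfp655 (gene ID 72611, chromosome 5), a KRAB zinc finger gene, had values of 7.01, 7.14 and 6.88 in NT, 7.32, 7.55 and 7.41 with CHIR, 7.25, 7.28 and 7.14 with XAV and 7.56, 7.32 and 7.45 with CHIR+XAV. The CHIR and CHIR+XAV arrays covered nearly the same range and lay above all NT and XAV arrays. With CHIR+XAV it rose by 0.43 (SE 0.09, limma adjusted p = 0.0322) from 7.01 ± 0.13 to 7.44 ± 0.12 (SD, n = 3). With CHIR alone the change was 0.42 (SE 0.09, adjusted p = 0.0577), and between CHIR+XAV and CHIR it was 0.02 (SE 0.09).

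Zfp646 (gene ID 233905, chromosome 7) was high on the arrays with XAV939. Its values were 7.05, 7.0 and 6.95 in NT and 7.04, 6.85 and 7.13 with CHIR, then 7.20, 7.40 and 7.17 with XAV and 7.39, 7.52 and 7.31 with CHIR+XAV. NT and CHIR arrays overlapped, and every array with XAV939 lay above all of them. The level rose by 0.41 (SE 0.09, limma adjusted p = 0.0431) with CHIR+XAV against NT, from 7.0 ± 0.05 to 7.41 ± 0.11 (SD, n = 3). The change was 0.01 with CHIR alone and 0.26 with XAV alone (adjusted p = 0.322), and 0.40 between CHIR+XAV and CHIR (adjusted p = 0.192).

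**Figure D2:**
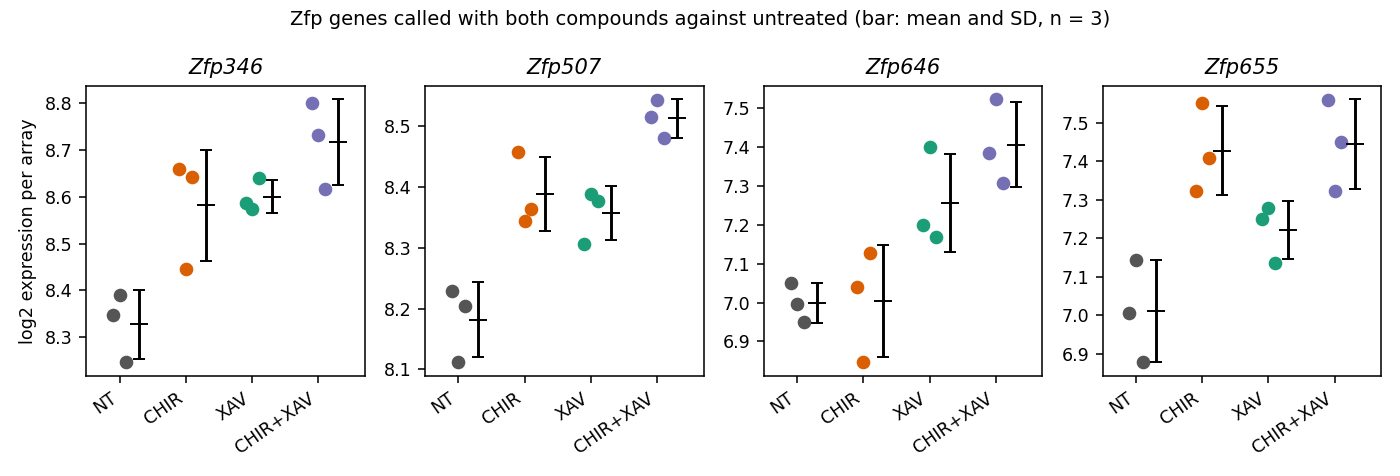
Log2 value of Zfp346, Zfp507, Zfp646 and Zfp655 on each of the 12 arrays by group, with the group mean and SD (n = 3) beside the points; each panel has its own vertical axis. In each panel the 3 CHIR+XAV points lie above the 3 NT points.

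These calls lay close to the threshold. Leaving out NT 1, NT 2, NT 3, CHIR+XAV 1 or CHIR+XAV 2 ended all 4 of them, and leaving out CHIR+XAV 3 left only Zfp346 called. Without NT 3 the adjusted p was 0.142 for Zfp346, 0.111 for Zfp507, 0.147 for Zfp655 and 0.162 for Zfp646; without NT 1 it was 0.0585, 0.0528, 0.061 and 0.0601, and without NT 2 it was 0.0811, 0.121, 0.0529 and 0.11, in that order. Without CHIR+XAV 1 the values were 0.0813, 0.0717, 0.084 and 0.0782, without CHIR+XAV 2 they were 0.106, 0.118, 0.0692 and 0.152, and without CHIR+XAV 3 they were 0.0466, 0.0739, 0.0832 and 0.065. Zfp646 was also lost without CHIR 1 (adjusted p = 0.0533) or XAV 1 (0.0555). Over 24 alternatives the change of Zfp346 stayed between 0.32 and 0.44, that of Zfp507 between 0.26 and 0.36, that of Zfp655 between 0.35 and 0.50 and that of Zfp646 between 0.33 and 0.46, while the adjusted p ran from 0.0119 to 0.142, 0.0101 to 0.121, 0.0145 to 0.147 and 0.0187 to 0.162.

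Larger changes than those of the called genes were seen in Zfp263 and Zfp654 with CHIR+XAV against NT, without a call. Zfp263 was at 6.93, 7.30 and 6.76 in NT, 7.29, 7.77 and 7.37 with CHIR, 7.11, 7.02 and 7.02 with XAV and 7.57, 7.47 and 7.33 with CHIR+XAV. The CHIR and NT arrays overlapped by a narrow margin, and NT 3 and CHIR 2 were the extremes. The change was 0.46 with CHIR+XAV (SE 0.13, adjusted p = 0.0843) and 0.48 with CHIR alone (adjusted p = 0.144); without NT 2 the latter was 0.64 with an adjusted p of 0.0482. Zfp654 changed by 0.45 (SE 0.12, adjusted p = 0.073); its NT values were 7.73, 7.78 and 7.33, with NT 3 well below the others. Zfp609 differed by 0.28 (adjusted p = 0.0663).

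On the lower side no Zfp gene with a mean of at least 7 was called. Zfp54 came closest, with 7.83, 7.59 and 7.69 in NT, 7.28, 7.47 and 7.40 with CHIR, 7.44, 7.36 and 7.66 with XAV and 7.35, 7.08 and 7.40 with CHIR+XAV. All CHIR and CHIR+XAV arrays lay below all NT arrays, and XAV overlapped NT. The difference from NT was -0.43 with both compounds (SE 0.10, adjusted p = 0.0525) and -0.32 with CHIR alone (adjusted p = 0.241). The former was -0.51 and called after quantile (adjusted p = 0.0244) or cyclic loess normalization (0.0257), where none of the 4 higher genes was, and it was called at -0.43 without XAV 2 (0.048) or XAV 3 (0.0488). Zfp52, a neighbour of Zfp54 on chromosome 17, differed by -0.34 (adjusted p = 0.106), and Zfp971 by -0.38 (adjusted p = 0.135), or by -0.68 with the SD of each array as a covariate (adjusted p = 0.00751).

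CHIR against NT gave no call among the 115, against 0.421% of all genes tested and 0.542% of the other bright genes, with limma; 22 (19.1%) passed at an unadjusted p under 0.05, 19 higher and 3 lower, against 10.3% of all genes and 11.5% of the other bright genes. The smallest p after that of Zfp655 belonged to Zfp292 (0.28, SE 0.07) and Zfp146 (0.30, SE 0.08), both at an adjusted p of 0.114. Zfp292 was at 8.21, 8.24 and 8.17 in NT and 8.45, 8.54 and 8.46 with CHIR, and Zfp146 at 7.54, 7.51 and 7.60 in NT and 7.82, 7.94 and 7.78 with CHIR. In both genes the 3 CHIR arrays lay above the 3 NT arrays. With CHIR+XAV against NT the differences of these genes were 0.11 and 0.19. Zfp358 had one of the smallest p on the lower side, at 7.79 ± 0.18 in NT and 7.60 ± 0.07 with CHIR (SD, n = 3), a difference of -0.19 (SE 0.09, limma adjusted p = 0.474). Among the 115, the 3 CHIR arrays were all above the 3 NT arrays for 21 (18.3%) and all below for 6 (5.22%); over the other bright genes these shares were 14.9% and 5.14%, over all genes 8.09% and 8.25%.

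XAV against NT gave no call in any gene tested (0%), and 19 of the 115 (16.5%) passed at an unadjusted p under 0.05 with limma, 15 higher and 4 lower, against 11.2% of all genes and 10.7% of the other bright genes. Zfp971 showed the largest difference, with 11.30, 11.26 and 11.05 in NT, 10.92, 11.21 and 11.25 with CHIR, 10.86, 10.38 and 10.91 with XAV and 10.77, 10.72 and 10.99 with CHIR+XAV. Every array with XAV939 lay below every NT array, and XAV 2 was the lowest. The XAV difference was -0.49 (SE 0.13, adjusted p = 0.24), and with the SD of each array as a covariate it was -0.57 (adjusted p = 0.0168). Zfp407 had the smallest p on the higher side (0.34, SE 0.09, adjusted p = 0.221), with NT at 7.18 to 7.25 and XAV at 7.42 to 7.65; a second probe of Zfp407, at a mean of 6.60, gave 0.02. Groups did not overlap in 19 of the 115 on the higher side (16.5%, against 16.8% of the other bright genes and 9.48% of all genes) and in 3 on the lower side (2.61%, against 3.44% and 8.17%). Zfp318 was among the smallest p on the higher side with XAV, at 7.28 ± 0.09 in NT and 7.56 ± 0.07 with XAV (SD, n = 3), a difference of 0.28 (SE 0.08, limma adjusted p = 0.255).

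CHIR+XAV against XAV, which is the change with CHIR99021 in cells that also had XAV939, gave no call among the 115 (0.236% of all genes, 0.403% of the other bright genes); 19 (16.5%) passed at an unadjusted p under 0.05 with limma, against 9.69% of all genes and 10.8% of the other bright genes. The groups did not overlap for 14 on the higher side (12.2%, against 6.94% of all genes and 10.7% of the other bright genes) and for 12 on the lower side (10.4%, against 7.32% and 4.93%). Of the 19, 12 were higher and 7 lower. Zfp532 and Zfp57 had the smallest p, at -0.26 (adjusted p = 0.169) and -0.27 (adjusted p = 0.193). On the higher side the largest change was 0.40, and Zfp296 and Zfp146 were at 0.25 (adjusted p = 0.285) and 0.22 (adjusted p = 0.338). CHIR+XAV against CHIR gave none either (0.0251% of all genes, 0.0775% of the other bright genes). At an unadjusted p under 0.05 with limma 15 (13.0%) passed, against 11% of all genes and 11.5% of the other bright genes. Groups did not overlap for 15 on the higher side (13.0%, against 8.92% of all genes and 14.1% of the other bright genes) and 2 on the lower side (1.74%, against 7.18% and 3.38%). The interaction, which takes the CHIR99021 change in cells with XAV939 less the change in cells without, gave no call in any gene (0%). In it 7 of the 115 (6.09%) had an unadjusted p under 0.05 with limma, against 4.94% of all genes and 3.89% of the other bright genes. Zfp37 was at -0.43 (SE 0.14) and Zfp277 at 0.35 (SE 0.12) in the interaction, both with an adjusted p of 0.965. Zfp330, Zfp961 and Zfp369 were at -0.52, -0.51 and 0.21 in the interaction, also with an adjusted p of 0.965. In CHIR+XAV against CHIR, Zfp946 had one of the smallest p on the lower side, with a difference of -0.24 (adjusted p = 0.367).

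**Figure D3:**
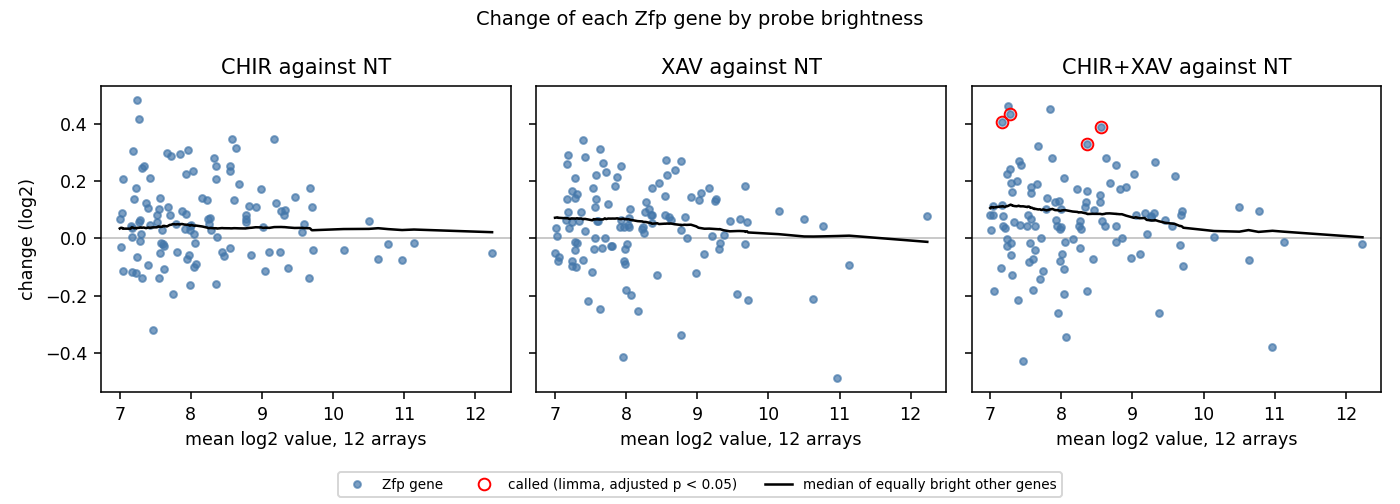
Change of each of the 115 Zfp genes (log2, vertical) against its mean over 12 arrays (log2, horizontal) for CHIR, XAV and CHIR+XAV against NT; red rings mark called genes and the line is the median of equally bright other genes. The 4 ringed genes lie between 0.33 and 0.43, and in the XAV and CHIR+XAV panels the line falls towards 0 as probes get brighter.

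Against NT, the median Zfp gene differed from other genes of its brightness by 0.03 or less. The 3 comparisons with NT share the NT arrays and are given side by side. The median change of the 115 was 0.05 with CHIR, 0.06 with XAV and 0.06 with CHIR+XAV, and the medians for equally bright genes were 0.04, 0.07 and 0.10. Over all genes tested, the medians were -0.01, 0.00 and -0.01. With CHIR 63 of the 115 lay above their equally bright genes and 52 below, with XAV 55 and 60, and with CHIR+XAV 51 and 64. These medians are small: with CHIR it was -0.00547 without NT 3, and with CHIR+XAV it was -0.012 after cyclic loess and -0.0027 after quantile normalization. In CHIR+XAV against CHIR the Zfp median was 0.00 and the equally bright median 0.06, with 74 of 115 below; in the interaction they were -0.05 and -0.00, again with 74 of 115 below. In CHIR+XAV against XAV they were 0.01 and 0.04, with 60 of 115 below.

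Arrays of the same group differed among themselves. The median deviation of the Zfp genes from their own means was -0.00, -0.03 and -0.11 on the NT arrays, -0.01, 0.03 and 0.01 with CHIR, 0.04, -0.04 and 0.04 with XAV and 0.05, -0.04 and 0.05 with CHIR+XAV. NT 3 was low, XAV 2 and CHIR+XAV 2 lay below the other arrays of their groups, and the 4 groups overlapped. On CHIR+XAV 2 the equally bright genes were at 0.05, so the Zfp genes lay 0.09 below them there; on the other 11 arrays the gap was 0.05 or less. NT 3 was the lowest of the 12 arrays for 35 of the 115 Zfp genes and XAV 2 for 23, while CHIR 2 was the highest for 21. NT 3 and XAV 2 also had the smallest SD over all probes, 2.14 each, where the other arrays reached up to 2.21; the part of this in the Zfp values was not tested. Zfp935 on XAV 2 was 7.91, against 8.62 to 9.06 on the other 11 arrays, and Zfp345 was 7.08 there against at least 7.50 elsewhere. Zfp330, with the largest spread after Zfp935 (SD 0.27), was at 7.69, 7.57 and 7.50 in NT, 8.15, 7.98 and 7.50 with CHIR, 7.85, 7.93 and 7.68 with XAV and 8.03, 7.50 and 7.23 with CHIR+XAV, and all 4 groups overlapped.

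**Figure D4:**
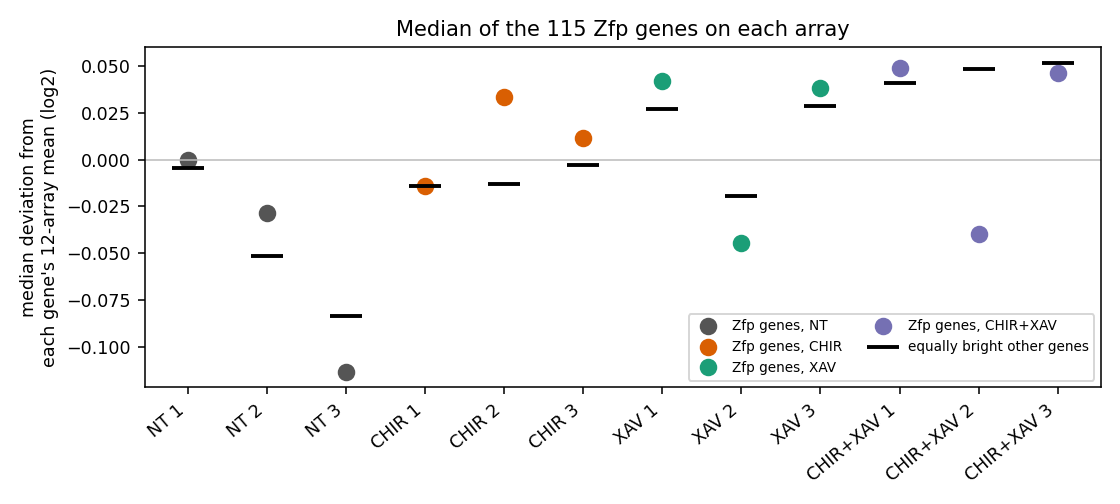
Median over the 115 Zfp genes of the deviation from each gene's own 12-array mean (log2), 1 point per array, coloured by group; the bar is the same median for equally bright other genes. Points and bars lie close together on most arrays, NT 3 is the lowest at -0.11, and CHIR+XAV 2 lies 0.09 below its bar.

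By role, genes that guard imprints and silence retroelements come first. Of 7 measured on that list, 5 had a mean of at least 7 and none was called in any comparison. Zfp57, which keeps methylation at imprinting control regions, was at 9.52, 9.46 and 9.40 in NT, 9.41, 9.35 and 9.30 with CHIR, 9.51, 9.46 and 9.43 with XAV and 9.31, 9.15 and 9.14 with CHIR+XAV. The CHIR+XAV arrays lay below all NT and XAV arrays, and CHIR overlapped NT and CHIR+XAV. Its differences were -0.26 with CHIR+XAV against NT (SE 0.07, adjusted p = 0.0814; 0.0447 with array weights) and 0.01 with XAV alone. Zfp445, which acts on imprints together with Zfp57, and Zfp809, which binds proviral DNA of murine leukaemia virus, differed by 0.17 and 0.18 with CHIR+XAV (adjusted p = 0.231 and 0.265). Zfp568, a KRAB repressor of a placental Igf2 transcript, had one of the smallest spreads between arrays (SD 0.05), and its largest change in the 5 comparisons was 0.13. Zfp638, a factor in the silencing of unintegrated retroviral DNA, stayed within 0.08 of NT in every group.

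Of 10 measured genes on the list for pluripotency and the early embryo, 5 were bright and none was called. Zfp281, a partner of Nanog that acts as cells enter the primed state, had means of 9.66 ± 0.09 in NT, 9.52 ± 0.02 with CHIR, 9.84 ± 0.09 with XAV and 9.64 ± 0.24 with CHIR+XAV (SD, n = 3). Zfp462, which restrains lineage genes in pluripotent cells, had means of 9.01 ± 0.01, 8.90 ± 0.02, 9.17 ± 0.06 and 9.10 ± 0.07, in the same group order. For both genes the 3 CHIR arrays lay below the 3 NT arrays, and for Zfp462 the 3 XAV arrays lay above them, at 9.12, 9.24 and 9.16; no difference was called. Zfp296, a partner of Klf4 in reprogramming, was low with XAV, at 8.15, 8.13 and 8.29 in NT, 8.38, 8.38 and 8.23 with CHIR, 7.97, 7.92 and 7.91 with XAV and 8.17, 8.08 and 8.32 with CHIR+XAV. The XAV arrays were the lowest 3 of the 12, and the difference from NT was -0.25 (SE 0.08, adjusted p = 0.284). Zfp219 was at 7.12 ± 0.14 in NT and 7.41 ± 0.07 with XAV (adjusted p = 0.299). Zfp706, with a role in leaving self-renewal, differed by at most 0.10 in the 5 comparisons.

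Among genes with roles in RNA handling, ribosomes or the spindle, 6 of 8 measured were bright and Zfp346, described above, was the only one called. Zfp207, a spindle assembly factor that loads Bub3 on kinetochores, had group means of 11.17 in NT, 11.15 with CHIR, 11.07 with XAV and 11.16 with CHIR+XAV. Zfp598, the ubiquitin ligase that marks collided ribosomes, differed by 0.16 with CHIR+XAV against NT (adjusted p = 0.247). The differences of Zfp622, which acts in the maturation of the large ribosomal subunit, Zfp326, a factor of splicing during elongation, and Zfp106, an RNA-binding protein, were -0.05, 0.08 and 0.01. Zfp451, a SUMO ligase, differed by 0.06.

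Of 11 measured genes that bind promoters or belong to complexes with NuRD or Zmynd8, 9 were bright and none was called. Zfp532, Zfp592 and Zfp687 share the partner Zmynd8, and their differences with CHIR+XAV against NT were -0.18, 0.24 and 0.10. Zfp532 was at 8.36, 8.45 and 8.46 in NT, 8.34, 8.23 and 8.23 with CHIR, 8.47, 8.55 and 8.5 with XAV and 8.19, 8.29 and 8.24 with CHIR+XAV. All arrays with CHIR99021 lay below all arrays without it. Zfp410, an activator of the NuRD subunit gene Chd4, differed by 0.23 with CHIR (adjusted p = 0.248) and by 0.21 with CHIR+XAV (adjusted p = 0.149). Zfp148 and Zfp384, which bind promoters, Zfp64, Zfp746 and Zfp24 had differences with CHIR+XAV of 0.04, 0.19, -0.13, 0.06 and 0.10.

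The partners through which KRAB proteins silence genes did not pass the test either. Of 24 listed genes, among them Trim28, Setdb1, Atf7ip, Dnmt3b and Hells, 22 were measured and 20 had a mean of at least 7. Limma called none in any comparison. At an unadjusted p under 0.05, 3, 2 and 4 of the 22 passed for CHIR, XAV and CHIR+XAV against NT. The counts were 0 for CHIR+XAV against XAV, 5 for CHIR+XAV against CHIR and 0 for the interaction. Over all genes tested the shares were 10.3%, 11.2%, 18.7%, 9.69%, 11% and 4.94%, in that order. For the 22 measured genes, the median changes against NT were 0.03, 0.04 and 0.06. Trim28 was at 10.97 ± 0.01 (SD, n = 3) in NT. Of other zinc finger families, 2 of 11 Zscan genes, 2 of 11 Zkscan genes and 11 of 35 Zbtb genes had a mean of at least 7, and none of these was called.

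By position, chromosome 7 held 21 of the 115, chromosome 17 held 17, chromosome 13 held 11 and chromosome 8 held 10. In RefSeq order, 30 of the 115 stood in 7 runs of at least 3 members with at most 5 other protein-coding genes between neighbours, a spacing chosen after the data were seen. The longest run was 10 genes on chromosome 17 from Zfp54 to Zfp945, with Zfp51 and Zfp52 among them. It had 7 lower and 3 higher differences with XAV against NT (median -0.10, from -0.42 to 0.07). The split was the same with CHIR+XAV against NT (median -0.06), and 6 lower and 4 higher with CHIR against NT. None was called. With XAV against NT, 67.0% of the 115, 66.2% of the other bright genes and 50.2% of all genes were higher. With CHIR+XAV against NT these shares were 67.0%, 72.6% and 47.4%. Zfp51, with the lowest XAV difference of the run, was at 8.34, 8.28 and 7.79 in NT and 7.84, 7.45 and 7.88 with XAV, so that NT 3 lay among the XAV arrays. A run of 4 on chromosome 8, Zfp930, Zfp868, Zfp869 and Zfp866, had 4 of 4 higher differences with CHIR against NT (0.10 to 0.31), none of them called. Every other run had both higher and lower differences in that comparison, such as 3 higher and 1 lower in the run of 4 on chromosome 13. With XAV against NT the chromosome 8 run had 2 higher and 2 lower. With CHIR against NT 65.2% of the 115, 63.7% of the other bright genes and 48.1% of all genes were higher.

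Over the 30 genes in runs the median change in CHIR+XAV against CHIR was -0.08, with 22 lower and 8 higher, where equally bright genes had 0.06; over the 85 other members it was 0.01, with 35 lower and 50 higher. It was -0.03 without CHIR 2 and -0.02 without CHIR+XAV 2. In XAV against NT the medians were -0.02 in runs and 0.07 outside them; that in runs was 0.02 without NT 1, 0.01 without NT 2, 0.02 without XAV 2, -0.05 without NT 3 and -0.04 without XAV 1. In CHIR+XAV against NT they were 0.01 in runs and 0.08 outside; that in runs was -0.04 without NT 3, -0.03 without CHIR+XAV 1 and 0.03 without NT 2. The sign of both medians in runs thus turned when single arrays were left out. In CHIR against NT they were 0.05 and 0.06, and -0.03 in runs without NT 3. The genes of a run may share sequence and signal, which was not compared here. They were therefore not taken as independent, and no test was made.

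**Figure D5:**
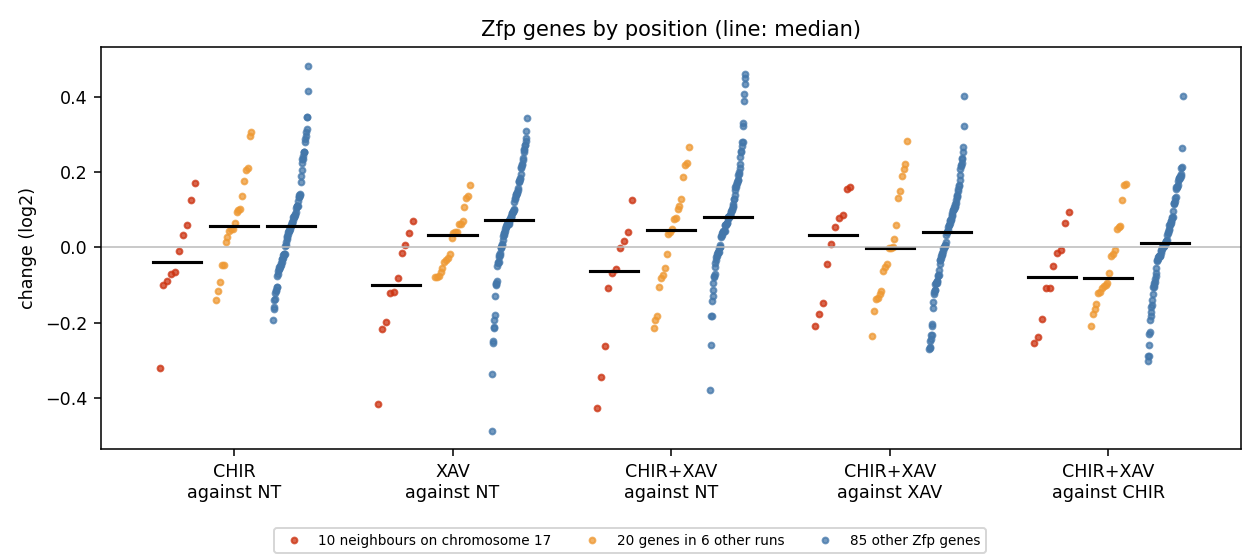
Change of each Zfp gene (log2) in 5 comparisons, for the run of 10 neighbours on chromosome 17, the 20 genes in 6 other runs and the 85 other members; the line is the median of each set and points are spread sideways by rank. The chromosome 17 points lie lower than the other members with XAV against NT, with a median of -0.10 against 0.07.

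Where a gene had several probes, they did not always give the same change. Of the 115, 7 had more than 1 probe. Zfp640 had 3, with XAV differences of -0.21, -0.50 and -0.53, the first from the brightest probe, which stands for the gene here. Zfp825 had -0.21 and -0.09, and Zfp706, with probe means of 12.2 and 9.12, had 0.08 and 0.12. Zfp60 had -0.12 with CHIR from the probe that stands for it and -0.63 from a dimmer probe with a mean of 5.75. For Zfp141 and Zfp664 the probes differed by less than 0.05 in the XAV change.

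Below the threshold of 7, calls were made in 3 of the 200 dimmer Zfp genes. By comparison these were 2 of 200 with CHIR against NT and 2 with CHIR+XAV against NT, where 0.421% and 1.13% of all genes were called, 1 in CHIR+XAV against XAV (0.236% of all genes), and none in the other comparisons. Zfp677 rose by 0.74 with CHIR against NT, from a mean of 6.32 to 7.06 (limma adjusted p = 0.0041). Zfp202 rose by 0.46 with CHIR (adjusted p = 0.0149) and by 0.35 with CHIR+XAV (adjusted p = 0.0487), from 5.06. Zfp93 fell by 0.49 with CHIR+XAV against NT (adjusted p = 0.0154) and by 0.59 against XAV (adjusted p = 0.00418). Of the genes left out by rule, Zfp36, which encodes an mRNA decay factor with another kind of finger, fell by 0.37 with CHIR (adjusted p = 0.0399). Zfp42 (Rex1), a marker of naive pluripotency, had a mean of 4.59, below the background measure, and was not called.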

How the data were processed

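RNA from 12 samples in 4 groups of 3 was measured on Affymetrix arrays of 1 colour. The table deposited by the authors gives 1 value per probe and array, taken here as log2 because the range was 2.52 to 14.3; no header states the base. Per the submitters' processing notes Partek was used, and the background correction, normalization and summary method are not given in the sources used here. No scan dates or slides were used. No further normalization was applied. Arrays carry no read depth, and 3 arrays per group limit the precision.

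Of 35399 probes, 21789 had 1 gene symbol, 1621 had several and 11989 were not listed in the platform annotation. Symbols were updated through the RefSeq table of GRCm38.p6, where 91 probes had no match; 315 of its 370 Zfp genes were measured, and 24 Zfp genes stood only on probes with several symbols. The probe with the highest mean stood for each gene. The test used limma 3.58.1 (lmFit, eBayes) in R 4.3.3 on the means of the 4 groups, two-sided, with 8 residual and 8.03 prior degrees of freedom and Benjamini-Hochberg adjustment over 19938 genes. The fit was tested on simulated data. Equally bright genes were other genes within 0.25 of a member's mean. Figures used matplotlib 3.10.9 in Python 3.11.15.

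Replicate numbers were shared between groups. Correlations of deviations between arrays of the same number ran from -0.25 to 0.20 with a median of 0.01, so the numbers were not taken to pair the samples. Named genes were those called, the 3 smallest p in each direction per comparison, the 5 brightest, the 3 most and 3 least variable, those next to the threshold, and all members of the role lists; Zfp609, Zfp654, the genes of the chromosome 8 run, Zfp945, the dimmer called genes and the genes with several probes were named after their values were seen. The members and lists were chosen with earlier results of these data known. Classes by KRAB domain or finger number were not analysed here. Alternatives were other normalizations, filters, probe rules and fits, and leaving out each array.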

Additional observations from a re-analysis of the deposited data

How the results depend on the processing

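The count of 4 Zfp genes called with CHIR+XAV against NT depended on the processing. Shares of other genes called under each alternative are not given here. The counts below therefore do not compare Zfp genes with other genes. It was 9 when dim genes were filtered, either at the median or at a mean of 7, which lowers the number of genes tested, 7 with array weights, 2 among members with a mean of at least 8, 2 with the replicate number as a block, 1 with quantile normalization or with cyclic loess, where it was Zfp54 on the lower side, 1 with the SD of each array as a covariate, where it was Zfp971 on the lower side, and 0 when fitted to the compared groups only, at 1.5-fold, or without NT 3 and XAV 2 together. Leaving out 1 array gave 0 to 5. For CHIR against NT the count was 1 with either filter and among members with a mean of at least 6, and 0 to 1 when 1 array was left out, the 1 being Zfp263 without NT 2; with either filter it was Zfp655. For XAV against NT it was 1, Zfp971, with the SD covariate. The median change of the Zfp genes with CHIR against NT was -0.00547 without NT 3, and also without NT 3 and XAV 2 together; without 1 array it ran from -0.00547 to 0.0798. With CHIR+XAV against NT it was -0.0118 after cyclic loess and -0.00268 after quantile normalization. The cause of these shifts was not tested. The block changed no other count of calls. Under the 24 alternatives run for the 4 called Zfp genes, the call was kept in 14 for Zfp346, 12 for Zfp507, 13 for Zfp655 and 10 for Zfp646. Their direction did not turn, but many alternatives, such as filters or leaving out a CHIR or XAV array, cannot alter the difference of means. The genes were also chosen because they were called higher, so the kept direction is no separate support.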
